A study of Mus musculus with 8 samples.

Results

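The gene set comprised 52 cell cycle and mitosis genes of the mouse, chosen by name as cyclins, cyclin-dependent kinases, checkpoint and kinetochore genes, spindle and cytokinesis genes and subunits of cohesin and condensin. A called peak belonged to a gene when its midpoint lay in the RefSeq span of the gene (GRCm38.p6, the build called mm10) and it lay on the strand that held most called peaks of the gene. By this rule the 52 genes, of 11431 protein-coding genes with a called peak, held 9106 of the 978429 called peaks in the 7 deposited lists. A called peak was present in every list for 51 genes, and Rbl2 had none in the lists of control 3.

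The study used crosslinking and immunoprecipitation (CLIP), which recovers RNA fragments bound by a protein, to identify RNAs bound by Zmat3, an RNA-binding zinc finger protein encoded by a p53 target gene. All lines were mouse embryonic fibroblasts transduced with retroviruses for the adenoviral oncogene E1A and the oncogenic Hras allele HrasG12V. The 3 control lines had the genotype Cas9+;E1A;HrasG12V and carried a lentiviral guide RNA labelled sgNegative control EV (control 1), sgNegative control SPA (control 2) or sgNegative control ACOCA (control 3). The knockout was 1 line of genotype Zmat3-/-;E1A;HrasG12V with no guide RNA, so that the loss of Zmat3 and the absence of Cas9 and of a guide RNA cannot be told apart. The 8 samples were 4 immunoprecipitates (IP) with an anti-Zmat3 antibody, taken from the gel region of 35 to 110 kDa, and their 4 inputs. Each peak list gave a log2 fold and a −log10 p-value of an IP against a comparator, which was the input for 4 lists and the knockout IP for 3 lists.

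Progress through the cell cycle is driven by cyclin-dependent kinases (CDKs), which are active only when bound to a cyclin and are held back by inhibitors such as p27. D-type cyclins with CDK4 or CDK6 act in G1 and release E2F transcription factors from the retinoblastoma family of pocket proteins, cyclin E and cyclin A act with CDK2 in S phase, and cyclin B with CDK1 starts mitosis. Aurora and polo-like kinases, the spindle checkpoint, spindle motors, cohesin and condensin then govern chromosome segregation, and E1A is known for binding the pocket proteins and so freeing E2F.

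Over input, 129323 peaks were called in control 1, 153768 in control 2, 122284 in control 3 and 167648 in the knockout. The lists gave no read counts, so the depth was unknown and no counting interval could be given. In the knockout list 83.0% of the peaks had a −log10 p of 0, against 25.7%, 27.4% and 41.7% in controls 1 to 3. The deposited folds took few distinct values, the 3 commonest of which covered 31.2% to 42.5% of the peaks of a list over input. Zmat3 itself had 42, 48 and 39 called peaks in the control lists over input, beside 38 for the knockout. Over the knockout IP its peaks had a median log2 fold of 2.60, 1.77 and 1.90 in controls 1 to 3. The medians over all called peaks of these lists were 1.18, 0.88 and 1.00. These values do not check the knockout, since RNA from the locus can remain without the protein. Of 10 fibroblast markers, 5, 6 and 5 had a called peak in controls 1 to 3 and 5 in the knockout, led by Col5a1 and Fn1. Col1a1, Col1a2, Thy1 and Lox had 0 called peaks, and so had the 3 endothelial markers. Of the markers of other cell types, the epithelial gene Epcam had 9, 5 and 11 called peaks in the controls and 10 in the knockout, and Krt18 had 0, 5, 0 and 8. The neuronal gene Map2 had 9, 8, 4 and 0, and the blood marker Cd68 had 1, 3, 2 and 2. The part of these cell types in the results was not tested. The lines are bulk cultures, in which fewer cells in a given phase and less RNA per cell cannot be told apart. Nothing in the labels says that the control lines came from separate embryos.

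Peaks with a log2 fold and a −log10 p that both reached 3 were counted as enriched. Over input, 17 of 1256 called peaks in the cell cycle genes were enriched in control 1, 19 of 1385 in control 2, 14 of 1267 in control 3 and 12 of 1290 in the knockout. These shares were 1.35%, 1.37%, 1.10% and 0.930%, beside 1.02%, 1.05%, 0.494% and 0.316% of all called peaks in the same lists. The control mean was 16.7 ± 2.52 enriched peaks (SD, n = 3), and the knockout value of 12 lay below all 3 controls. The whole knockout list also held the fewest enriched peaks, 529 against 1319, 1622 and 604 in controls 1 to 3. Cdk6 alone held 9, 1 and 8 of the enriched control peaks and 3 of those in the knockout. Without Cdk6, left out after its values were seen, 8, 18, 6 and 9 enriched peaks remained. The knockout count then lay above those of controls 1 and 3 and below that of control 2. The shares were then 0.682%, 1.34%, 0.506% and 0.743%, so that control 1 lay below the share of its list, control 3 close to it, and control 2 and the knockout above it.

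Over the knockout IP, which measures what the antibody recovers without Zmat3, 8 of 1256, 21 of 1385 and 6 of 1267 called peaks of the genes were enriched in controls 1 to 3. These shares were 0.637%, 1.52% and 0.474%, beside 0.621%, 1.09% and 0.648% of all called peaks. The control mean was 11.7 ± 8.14 (SD, n = 3), and control 2 alone supplied 21 of the enriched peaks, so that the mean without control 2 was 7. The 3 comparisons share the knockout library. In number of genes, 6, 15 and 6 of the cell cycle genes had a peak enriched over the knockout IP in controls 1 to 3, where 5.32%, 11.8% and 5.66% of all protein-coding genes with a called peak had 1. Over input, 7, 15 and 7 genes had an enriched peak in controls 1 to 3 and 5 in the knockout, beside 6.73%, 11.0%, 3.62% and 2.50% of all protein-coding genes. The cell cycle genes also had more called peaks each, with a median of 17, 20.5 and 18 in controls 1 to 3 and 17 in the knockout, against 7, 8, 6 and 8 over all protein-coding genes.

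**Figure D1:**
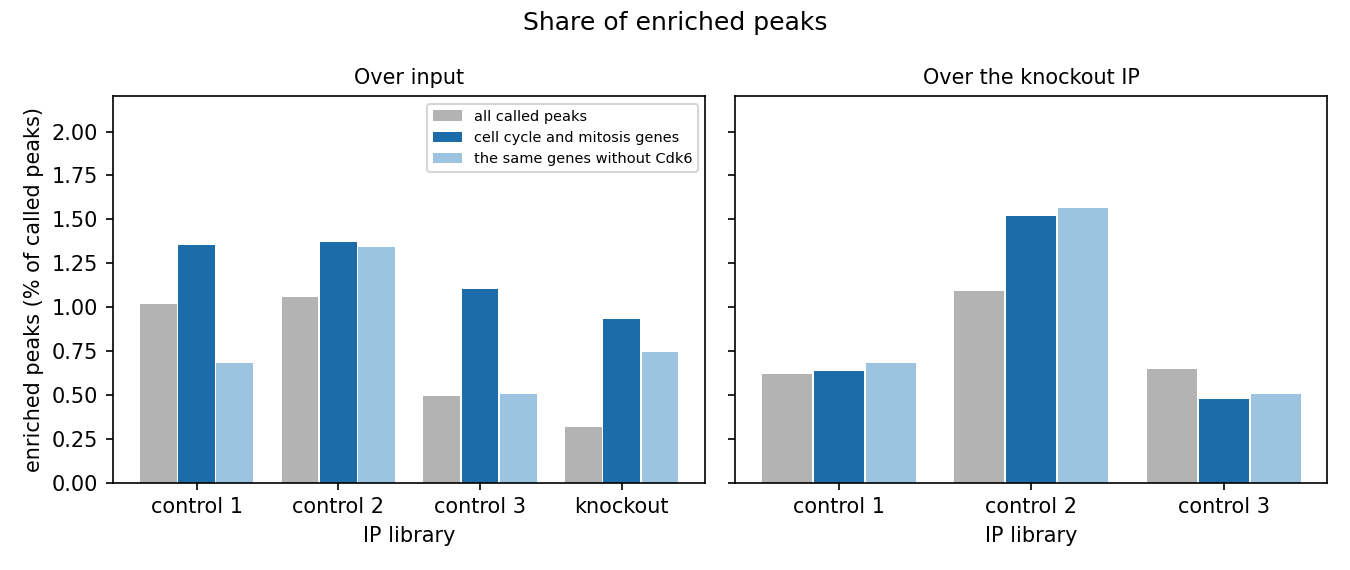
Share of called peaks that were enriched (percent, y axis) in each IP library (x axis), over input on the left and over the knockout IP on the right. Grey bars show all called peaks of a list, dark blue bars the 52 cell cycle and mitosis genes and light blue bars the same genes without Cdk6. In control 3 the dark bar over input, 1.10%, came down to 0.506% without Cdk6.

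Joining the overlapping enriched peaks of all 7 lists gave 46 sites in 22 genes, and 30 genes had no enriched peak in any list. The same joining was not done over all genes, so the site counts in this paragraph have no background and are a description only. The cell cycle genes also had more called peaks each, as given above. Of these sites, 29 were enriched over input in at least 1 control and 4 in all 3. Against the knockout IP, 28 sites were enriched in at least 1 control, and 5 in 2 or more, in Aurkb, Plk4, Tpx2 and at 2 places in Racgap1. In the knockout itself 10 sites, in Cdk6, Cdk11b, E2f3, Mad1l1 and Stag1, were enriched over input, 6 of which were also enriched over input in a control. A site took the peak with the highest fold in each library, and these peaks need not overlap each other. Of those 10 sites, 0 were enriched over the knockout IP in any control, and their 22 control values ran from −1.44 to 1.74 with a median of −0.34. These sites were chosen for a high knockout value, and the knockout IP is the comparator of those folds. Low values there were thus likely from the choice and are no separate result. The genes held sites that were high against both comparators, as well as 6 that were enriched over input both in a control and in the knockout.

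A region was called reproducible when at least 2 controls each had, at that place, overlapping peaks that were enriched against both comparators. Of the 51 genes called in all 3 controls, Aurkb and Plk4 had such a region, that is 2 genes or 3.92%, where 2.28% of all protein-coding genes called in all 3 controls had 1. A count of 2 genes gives no result beyond that background. The Plk4 region rested on controls 1 and 2 alone, so leaving out either removes it by the rule of 2 controls.

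The D-type cyclin Ccnd3, an activating subunit of CDK4 and CDK6 (chr17:47505051-47599689, plus strand), had the highest gene median of the set over the knockout IP. The median log2 fold of its called peaks was 2.60 in control 1, 1.03 in control 2 and 2.58 in control 3 (2.07 ± 0.90, SD, n = 3). Control 2 stood well below the other controls. The libraries also differed in how many peaks were called in the gene, with 55 in control 1, 13 in control 2, 47 in control 3 and 6 in the knockout. RefSeq lists starts of Ccnd3 at 47505051 and at 47593467, 88.4 kb apart, and nearly all of this difference lay between them. Upstream of the inner start 50, 6 and 39 peaks were called in the 3 controls, beside 1 in the knockout. Downstream of it there were 5, 7, 8 and 5, so the number of peaks was alike over the shorter form of the gene. The folds of these downstream peaks were not alike, with medians over input of 0.31, 0.43 and −0.11 for controls 1, 2 and 3 against −1.67 for the knockout. The upstream peaks had a median log2 fold over the knockout IP of 2.60, 1.88 and 2.58, and the downstream peaks 1.18, 0.98 and 0.95. The amount of Ccnd3 RNA in each line was not measured by these lists, and its part in these counts was not tested.

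The highest Ccnd3 site over input lay upstream of the inner start at chr17:47543935-47544116, inside the span of the long non-coding RNA gene Gm41590 as well. Its log2 fold over input was 4.22 in control 1, 2.60 in control 2, 4.81 in control 3 and 0.65 in the knockout. The control values did not overlap the knockout value, but the knockout peak, at 47543920-47543956, did not overlap the control 1 peak, at 47544010-47544079. The control 2 peak over input, at 47543882-47543944, did not overlap the control 1 peak either. Relative to the knockout IP the site had 2.92, 1.03 and 3.21, and the threshold was passed in control 3 alone. The 1.03 of control 2 came from a different peak than its 2.60, at 47544013-47544078. A second Ccnd3 site, at chr17:47523354-47523586, was called in control 1 alone, with 2.16 over input and 4.77 over the knockout IP.

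Among the other G1 and S phase cyclins, Ccne2, an E-type cyclin that activates CDK2, had 1 site, at chr4:11194866-11194982. It was called in control 2 alone, where it had 3.72 over input and passed the threshold against the knockout IP as well. Ccnd1, another D-type cyclin, had the lowest gene median of the set over the knockout IP, with −0.40, 0.30 and −0.22 in controls 1 to 3 (−0.11 ± 0.36, SD, n = 3). The same D-type family thus held both ends of the ranking. Its gene median over input was 0.31, −0.14 and −0.28 in the controls and −0.31 in the knockout. Ccnd2, Ccne1 and Ccna2 had no enriched peak, and their mean gene medians over the knockout IP were 1.20, 1.21 and 1.12.

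Cdk1 encodes the kinase that drives entry into mitosis, and Ccnb1 the B-type cyclin that activates it. Ccnb1 had no enriched peak. In Cdk1 a site at chr10:69350216-69350302 had 1.82, 3.17 and 1.91 over the knockout IP and was enriched in control 2 alone, with 2.12, 1.89 and 0.33 over input. Called peaks also reached the 5′ end of Cdk1 in all 4 IP lists, with a highest log2 fold over input of 0.51, −0.88 and 0.08 in the controls and −1.84 in the knockout. None of these was enriched. All 3 controls were above the knockout, but the knockout list was also lower over all called peaks. Its median over input was 0.23, against 0.90, 0.60 and 0.60 in controls 1 to 3. The RefSeq window from 250 bases before to 50 bases after the Cdk1 start is shown because it combines these peaks with elements known from mitotic promoters. It lies at chr10:69352863-69353162 on the minus strand (GRCm38.p6), and capitals mark the bases under a called peak over input in any IP list.
Cdk1: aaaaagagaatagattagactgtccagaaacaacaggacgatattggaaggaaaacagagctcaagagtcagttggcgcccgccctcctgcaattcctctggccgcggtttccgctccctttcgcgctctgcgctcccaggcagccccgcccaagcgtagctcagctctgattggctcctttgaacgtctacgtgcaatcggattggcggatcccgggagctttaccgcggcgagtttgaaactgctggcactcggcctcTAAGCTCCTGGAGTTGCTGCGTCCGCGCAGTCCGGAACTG

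Kif11, the motor protein Eg5 that pushes spindle poles apart, had called peaks at its 5′ end in all 3 controls and no called peak there in the knockout. Its window lies at chr19:37376132-37376431 on the plus strand, shown in the same way for comparison with Cdk1.
Kif11: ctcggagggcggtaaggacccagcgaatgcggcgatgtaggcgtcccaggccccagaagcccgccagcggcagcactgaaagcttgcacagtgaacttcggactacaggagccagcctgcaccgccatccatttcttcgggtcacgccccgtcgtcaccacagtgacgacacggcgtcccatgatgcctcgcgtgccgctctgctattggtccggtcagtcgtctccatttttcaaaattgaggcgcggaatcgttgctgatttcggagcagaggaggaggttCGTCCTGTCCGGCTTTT

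The Kif11 peaks had a log2 fold over input of 0.31, −0.47 and 2.40, and of 0.60, 0.03 and 0.81 over the knockout IP. Smc3 and Cdk12 were the only other genes of the set in whose windows all 3 controls had a called peak. CCAAT, the box bound by the factor NF-Y, and TTTGAA, a form of the cell cycle homology element of mitotic genes, were searched on both strands of each window, and matches that shared a base were counted separately. The Cdk1 window held 3 matches to CCAAT and 2 to TTTGAA, and the Kif11 window 1 of each. Of 43 windows of 39 genes of the set, 25 (58.1%) held CCAAT and 16 (37.2%) held TTTGAA, beside 37.4% and 17.9% of all 32851 windows in the RefSeq table. These matches describe the DNA letters, and no test of binding was made.

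Cdk6, a G1 kinase partner of the D-type cyclins, held the densest group of enriched peaks in the set. Its span at chr5:3341004-3531008 had 83, 43 and 82 called peaks over input in the 3 controls, beside 79 for the knockout. All enriched Cdk6 peaks over input lay within 2406 nt, at chr5:3479216-3481621 on the plus strand, 138 to 141 kb into a gene of 190 kb. In this stretch 12, 5 and 11 peaks were called in controls 1 to 3 and 8 in the knockout, of which 9, 1, 8 and 3 were enriched. Their median log2 fold over input was 3.64, 2.90 and 3.50 in the controls, beside 3.29 in the knockout. The knockout value lay among the control values. Elsewhere in the gene the medians were 1.31, 1.60 and 1.18 in the controls and 0.23 in the knockout.

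Against the knockout IP the same Cdk6 stretch had medians of 0.68, −0.26 and 1.21, and 0 peaks there were enriched. The site with the highest control mean, at chr5:3480485-3480869, had a log2 fold over input of 4.77, 3.60 and 4.30 in the controls and 3.82 for the knockout. It was enriched in all 4 libraries, but not by peaks over the same bases. The control 1 peak, at 3480732-3480869, did not overlap those of control 2 (3480516-3480662), control 3 (3480489-3480630) or the knockout (3480485-3480577). Relative to the knockout IP this site had 1.06, −0.26 and 1.21, all under the threshold. The 1.21 of control 3 came from a different peak than its 4.30, at 3480746-3480867. At the edge of the stretch, chr5:3479216-3479319 had 3.64 in control 1, 3.50 in control 3 and 1.15 in the knockout, with no called peak in control 2.

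**Figure D2:**
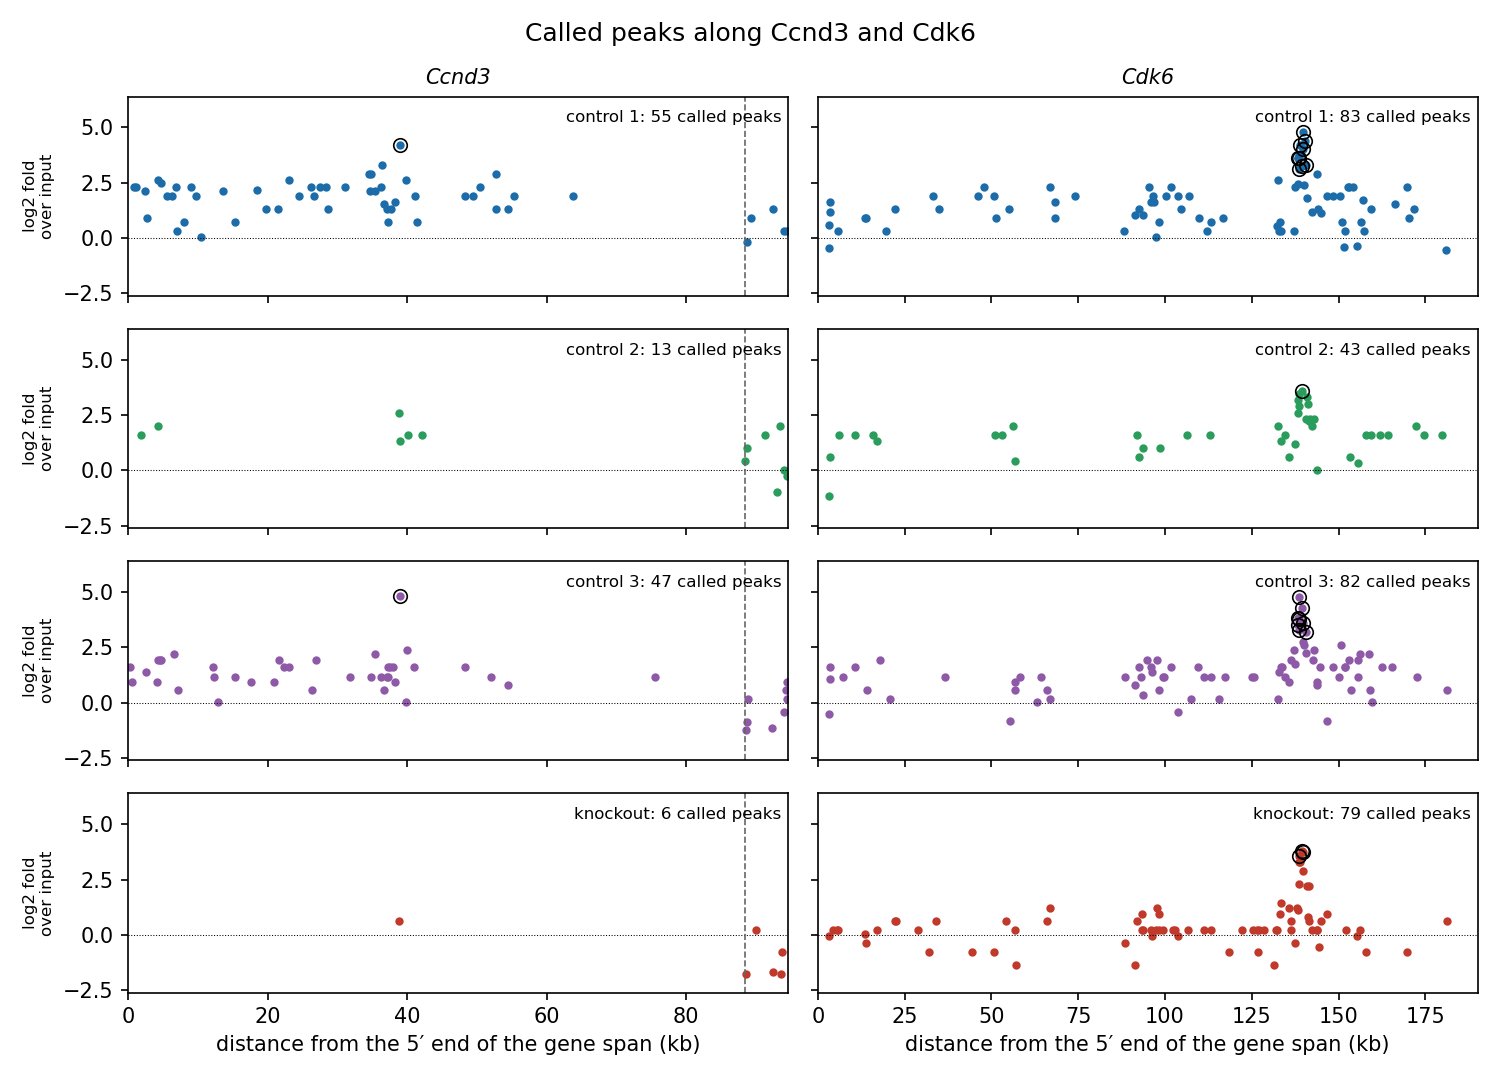
Called peaks over input along Ccnd3 (left) and Cdk6 (right), with the distance from the 5′ end of the gene span (kb) on the x axis and the log2 fold over input on the y axis, 1 row per IP library. Ringed points are enriched peaks and the dashed line marks the inner Ccnd3 start. Left of that line the points number 50, 6 and 39 in the controls and 1 in the knockout, while the Cdk6 cluster near 140 kb stands in all 4 libraries.

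Of the other interphase kinases and their inhibitor, Cdkn1b, which encodes p27, had a site near its 5′ end, at chr6:134920668-134920773. It was called in control 1 alone, with 1.21 over input and 3.30 against the knockout IP. Cdk4, the other G1 kinase, had a low gene median over the knockout IP in all controls, with 0.00, 0.62 and −0.15 (0.16 ± 0.41, SD, n = 3). Cdk2 had no enriched peak and a mean gene median of 1.28.

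The transcriptional kinases Cdk11b, Cdk12 and Cdk13 are known mainly for phosphorylating RNA polymerase or splicing factors. None of the 3 had a peak enriched over the knockout IP. Cdk11b had a site near its 5′ end, at chr4:155625365-155625515, with a log2 fold over input of 2.48, 4.02 and 4.30 in the controls and 4.20 for the knockout. The knockout value lay within the range of the controls. Its values over the knockout IP were −1.44, −0.93 and −0.30, below 0 in all 3 controls. The knockout had 2 further enriched Cdk11b sites just upstream, with log2 folds of 3.60 and 3.86 and no called peak in any control. The gene medians over the knockout IP were low in Cdk11b (0.56 ± 0.25) and Cdk12 (0.46 ± 0.14, both SD, n = 3).

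Cdc25a, a phosphatase that removes the inhibitory phosphate from CDKs, had a site near its 3′ end, at chr9:109891919-109892016. It had log2 folds over the knockout IP of 3.60, 4.38 and 3.39, whereas those over input were 3.31, 3.10 and 1.40. All 3 controls lay above 3 over the knockout IP, but the −log10 p passed its threshold in control 2 alone. A neighbouring Cdc25a site was called in control 2 alone, with 4.10 over the knockout IP. Anapc1, the largest subunit of the anaphase-promoting complex, had a site at chr2:128638381-128638454 with 0.31, 3.82 and 1.92 over input and 1.60, 3.10 and 2.90 over the knockout IP. Here too the enrichment was that of control 2. Anapc1 was among the genes with most called peaks, with 53, 77 and 73 in the controls and 58 in the knockout. Cdc25b and Cdc20, the activator of the complex, had no enriched peak.

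Rbl1 encodes p107, a pocket protein that represses E2F target genes. A Rbl1 site at chr2:157202044-157202150 had 1.90 and 3.60 over input in controls 1 and 2 and 2.77 and 3.30 over the knockout IP, and was not called in control 3. A second site, 189 nt from the 5′ end of the gene, had log2 folds over the knockout IP of 2.92, 3.88 and 1.58 while its folds over input were 1.05, 0.14 and −0.86. Rbl1 had a gene median over the knockout IP of 1.87, 1.88 and 1.78 (1.84 ± 0.06, SD, n = 3), among the highest of the set and alike in the 3 controls. Its relative Rbl2, which encodes p130, had few called peaks and no enriched peak.

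E2f3, an E2F transcription factor, had the second most called peaks of the set, with 102, 92 and 72 in the controls and 67 in the knockout. Of its enriched sites, that at chr13:29964327-29964407 passed in control 3 and in the knockout, with log2 folds over input of 1.90, 1.24 and 3.12 in the controls and 3.00 in the knockout, and against the knockout IP −1.06, −1.07 and −0.39. The site at chr13:29966215-29966285 was enriched over input in control 1 alone, at 3.22, and that at chr13:29963904-29964013 in the knockout alone, at 3.14. E2f1 had no enriched peak.

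Aurkb, the Aurora B kinase of the chromosomal passenger complex, which corrects chromosome attachment and drives cytokinesis, held the only region of the set supported by all 3 controls. It lay at chr11:69050157-69050291 on the plus strand, 1440 nt from the 3′ end of the gene span (chr11:69045624-69051664), and overlapped no other annotated gene. Its log2 fold over input was 4.84 in control 1, 5.06 in control 2 and 4.18 in control 3 (4.69 ± 0.46, SD, n = 3). Relative to the knockout IP it was 5.12, 5.34 and 3.58 (4.68 ± 0.96, SD, n = 3). All 3 controls passed both thresholds against both comparators, and no peak was called there in the knockout. The other called Aurkb peaks had a median log2 fold over the knockout IP of 1.76, 0.88 and 1.58, against list medians of 1.18, 0.88 and 1.00. The site was picked by its folds, and these other peaks leave out every enriched one. That the site stood above them in each control is therefore no separate result.

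Plk4, the polo-like kinase that starts centriole duplication, held the other region, supported by controls 1 and 2, at chr3:40810095-40810184 on the plus strand. The joined site at chr3:40810074-40810192 had a log2 fold over input of 4.77, 3.19 and 1.84 (3.27 ± 1.47, SD, n = 3), with control 3 well below the others. Against the knockout IP it had 4.06, 4.47 and 3.83 (4.12 ± 0.32, SD, n = 3), enriched in all 3 controls. No peak was called there in the knockout. The remaining Plk4 peaks had medians over the knockout IP of 2.01, 1.30 and 2.17, also above the list medians.

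Incenp, the scaffold of the chromosomal passenger complex that binds Aurora B, had a site at chr19:9886777-9886859 with log2 folds over the knockout IP of 3.77, 4.55 and 3.39. All 3 were above 3, with the p-value threshold met in control 2 alone, and the folds over input were 2.48, 2.26 and 2.40. Aurka, the Aurora A kinase of the spindle poles, had no enriched peak, but its gene median over the knockout IP was among the 5 highest, at 1.01, 1.71 and 2.38 (1.70 ± 0.68, SD, n = 3). Plk1 had no enriched peak and a mean gene median of 0.69.

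Mad1l1, which encodes the spindle checkpoint protein Mad1, had the most called peaks of the set, with 185, 112 and 156 in the controls and 225 in the knockout, in a span of 312920 nt. Its site at chr5:140044730-140044851 (minus strand) had 4.19, 3.60 and 3.30 over input in the controls and 4.35 for the knockout. The knockout value was the highest of the 4. Its log2 folds over the knockout IP were 0.33, −0.85 and −0.44. The neighbouring site at chr5:140044592-140044676 was enriched in the knockout alone, at 3.65, beside 3.02, 2.02 and 3.18 in the controls. The sites at chr5:140189301-140189459 and chr5:140257296-140257355 were enriched over input in control 1 alone, at 4.02 and 3.22, and had at most 2.17 over the knockout IP. A different Mad1l1 site, at chr5:140239307-140239368, was called in control 3 alone, with 4.04 over the knockout IP and 3.06 over input. Bub1, Bub1b, Cenpe and Cenpf, which encode checkpoint kinases and kinetochore proteins, had no enriched peak.

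Racgap1 encodes the GTPase-activating subunit of centralspindlin, which marks the plane of cell division together with the motor Kif23. It had 2 sites enriched over the knockout IP in 2 controls each, and neither was enriched over input. At chr15:99624357-99624530 the log2 fold over the knockout IP was 3.92, 4.38 and 3.17 (3.82 ± 0.61, SD, n = 3) and the fold over input 2.64, 1.78 and 2.18. At chr15:99636273-99636353 it was 3.92, 2.30 and 4.04 over the knockout IP and 2.64, 2.02 and 3.06 over input. No peak was called at either place in the knockout, and the controls that passed were 1 and 2 at the former and 1 and 3 at the latter. The other Racgap1 peaks had medians of 1.18, 0.96 and 2.04 over the knockout IP.

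Tpx2, which activates Aurora A and promotes spindle assembly, had a site at chr2:152876422-152876524 that was enriched over the knockout IP in controls 2 and 3. Its log2 folds over the knockout IP were 3.18, 4.88 and 4.28 (4.12 ± 0.86, SD, n = 3), and over input 2.90, 3.02 and 1.71. A second Tpx2 site, at chr2:152887967-152888059, was enriched in control 2 alone, with 2.60, 4.20 and 3.39 over the knockout IP and 1.31, 3.92 and 2.40 over input. Kif11, Kif20a, Kif23, Ect2, Anln and Numa1 had no enriched peak, although Kif23, Ect2 and Kif11 had mean gene medians over the knockout IP of 1.52, 1.48 and 1.35.

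Stag1, a subunit of the cohesin ring that holds sister chromatids together, had the highest fold over input of the set in control 1 and in the knockout. The site at chr9:100718596-100718731 on the plus strand had 5.99, 3.99 and 4.30 in the controls and 5.15 in the knockout (control mean 4.76 ± 1.08, SD, n = 3). All 4 libraries were enriched, and the knockout lay within the controls' range. Its folds over the knockout IP were −0.15, −0.67 and −0.27. In the paralogue Stag2 a site at chrX:42228038-42228174 had 3.12, 4.48 and 2.60 over input, 2.41, 3.76 and 2.58 over the knockout IP, and no called peak in the knockout. This site was enriched against both comparators in control 2 alone. A second Stag2 site, at chrX:42265911-42266022, was called in control 2 alone, with 2.41 over the knockout IP and 3.72 over input.

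The other cohesin genes showed single-library enrichment. In Rad21, the cohesin subunit cut by separase, a site at chr15:51968038-51968127 had 4.19 over input and 4.47 over the knockout IP in control 2, 2.31 and 2.60 in control 1, and no called peak in control 3. A second Rad21 site, at chr15:51976217-51976389, had 2.60, 4.82 and 2.17 over the knockout IP and was enriched in control 2 alone. In Nipbl, the cohesin loader, a site lay near the 3′ end at chr15:8291691-8291767. It had 2.77, 3.76 and 2.58 over the knockout IP and was enriched there in control 2 alone. Over input this site had 2.48, 2.48 and 0.60 and was not enriched. Smc1a and Smc3, the ring's long arms, had no enriched peak, and the Smc1a gene median was among the 5 lowest, at 0.52 ± 0.17 over the knockout IP (SD, n = 3).

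Among the condensin genes, which compact mitotic chromosomes, Ncapd2 had 4 sites. Those at chr6:125171134-125171206 and chr6:125187243-125187284 were enriched in control 2, with 4.76 and 3.20 over the knockout IP and 3.48 and 3.92 over input. The remaining pair was enriched over the knockout IP in control 1 alone, with 3.92 and 3.41, where the folds over input were 0.64 and 0.03. Those sites were therefore high against the knockout IP without being high against input. Smc2 and Smc4 had no enriched peak.

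The Smc4 span also hosts the microRNA genes Mir15b and Mir16-2, whose products are known to repress G1 cyclins. Their 5′ mature forms are shown, as listed in RefSeq (GRCm38.p6) at chr3:69009775-69009796 and chr3:69009918-69009939 on the plus strand, because peaks were called over both hairpins in all lists. Capitals mark the seed, bases 2 to 8, which the 2 forms share.
mmu-miR-15b-5p: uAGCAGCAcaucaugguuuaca
mmu-miR-16-5p: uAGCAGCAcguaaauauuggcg

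At the Mir15b hairpin the log2 fold over input was 1.31, 1.75 and 2.60 in the controls and 0.65 in the knockout, with 1.01, 0.45 and 2.00 over the knockout IP. At Mir16-2 it was 0.73, 1.02 and 2.77 in the controls and 1.65 in the knockout, with −0.57, −0.29 and 0.58 over the knockout IP. Neither hairpin was enriched in any library, and at Mir16-2 the control and knockout values overlapped.

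Pcnt, which encodes the centrosome scaffold pericentrin, had 2 sites, both enriched in control 2 alone. The site at chr10:76434069-76434174 had 4.19 over input and 4.47 over the knockout IP in control 2, beside 2.64 and 1.92 in control 1. The site at chr10:76427005-76427087 had 3.82 and 4.10 and was not called in the other controls. Cep192 had no enriched peak.

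Sites that passed both thresholds over both comparators numbered 2 in control 1, 14 in control 2 and 2 in control 3. Of those in control 2, 12 sites in 9 genes passed in no other control. Such sites were not counted over all genes, so these counts have no background and are a description only. Among the controls, control 2 also held the most called and the most enriched peaks over all genes, with 1681 enriched over the knockout IP against 803 and 793, and the part of this in the member counts was not tested.

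**Figure D3:**
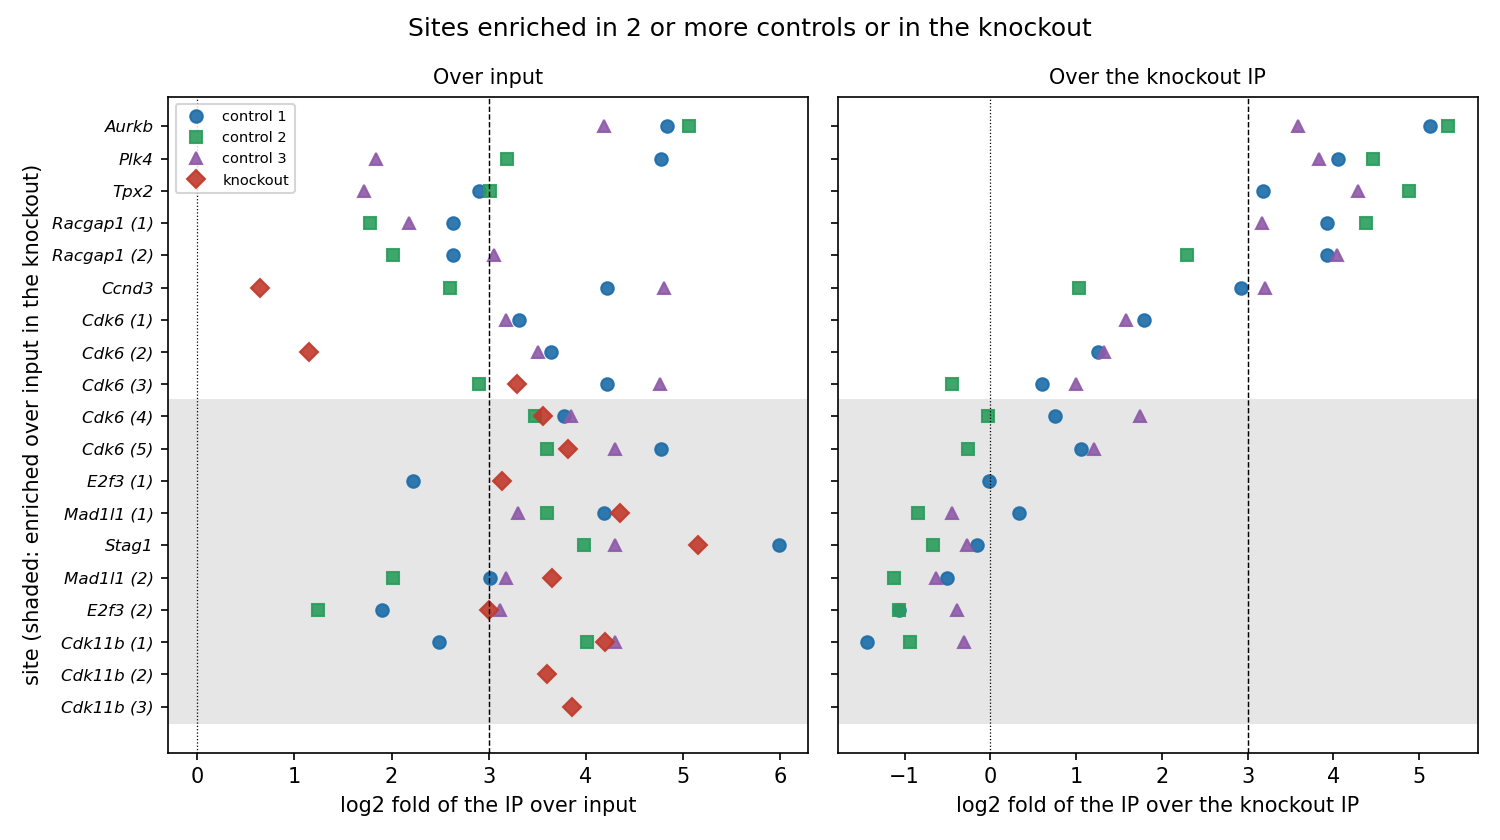
Log2 fold over input (left) and over the knockout IP (right) at the sites enriched in 2 or more controls against either comparator, or in the knockout over input (shaded). Circles, squares and triangles are controls 1, 2 and 3, diamonds the knockout, and the dashed line marks the fold threshold of 3. Aurkb lies right of the line in both panels, while the shaded sites lie between −1.44 and 1.74 in the right panel.

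Whole genes were compared by the median log2 fold of their called peaks. Against the knockout IP the median of these gene medians was 1.18, 0.88 and 1.17 for the cell cycle genes in controls 1 to 3 (mean 1.08 ± 0.17, SD, n = 3), and 1.18, 1.00 and 1.17 over all protein-coding genes. The median over all called peaks of a list was 1.18, 0.88 and 1.00 in controls 1 to 3. Above it lay 24 of 52, 25 of 52 and 30 of 51 cell cycle genes with a called peak. At it lay 10, 10 and 4, and below it 18, 17 and 17. The median over all protein-coding genes was no lower than this peak median, so these counts do not set the cell cycle genes apart. The share of all genes above it was not computed. The 5 highest mean gene medians were those of Ccnd3, Plk4, Rbl1, Aurkb and Aurka, and the 5 lowest those of Ccnd1, Cdk4, Cdk12, Smc1a and Cdk11b. Plk4 had 2.10, 1.30 and 2.17 (1.86 ± 0.48, SD, n = 3) and Aurkb 1.92, 1.62 and 1.58 (1.71 ± 0.19, SD, n = 3). Plk4, Rbl1, Aurkb and Aurka, at 1.86, 1.84, 1.71 and 1.70, differed by less than the SD of Plk4.

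**Figure D4:**
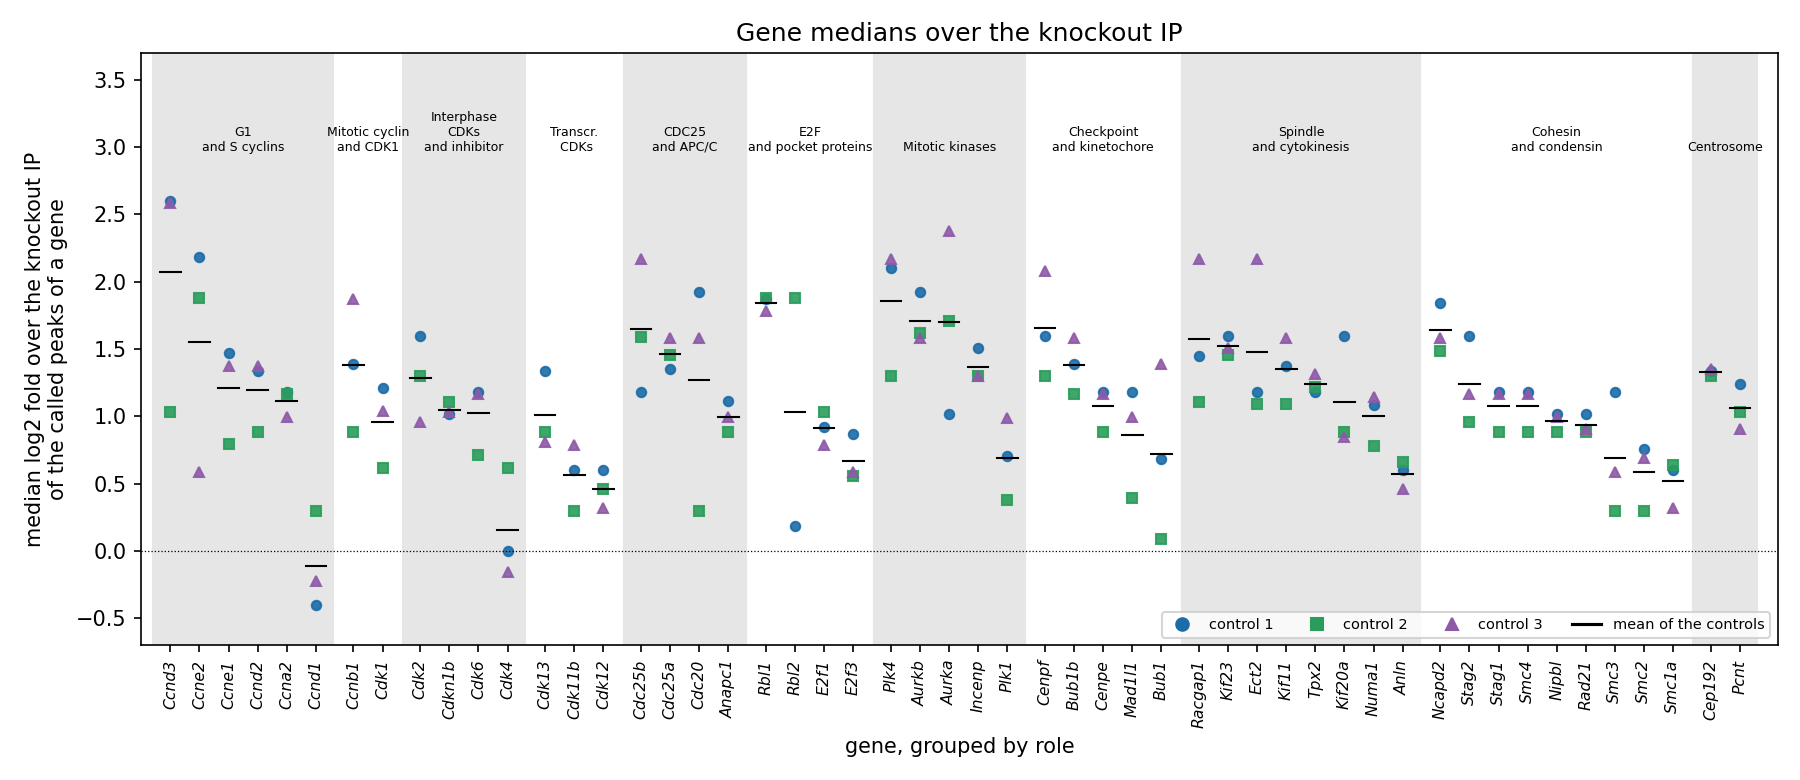
Median log2 fold over the knockout IP of the called peaks of each of the 52 genes (y axis), with the genes ordered by role and, within a role, by mean (x axis). Points are the 3 controls and bars their mean. Ccnd3 stands highest at a mean of 2.07 with control 2 apart at 1.03, and Ccnd1 lowest at −0.11.

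The controls and the knockout were then compared on gene medians over input, centred on each library's median, with limma over the 4737 genes that had at least 5 called peaks in each of the 4 lists. The lone knockout library was assumed to vary like the controls. At an adjusted p below 0.05, 0 of the 41 cell cycle genes tested were higher and 0 lower in the controls, where 0% of all genes tested passed in either direction. At an unadjusted p below 0.05, limma gave 3 cell cycle genes, all higher in the controls, and 402 higher and 47 lower among all genes. For Ccnd3 the centred medians were 1.00, 1.00 and 0.58 in the controls and −1.45 in the knockout, a difference of 2.32 ± 0.27 (SE; limma adjusted p = 0.489). The Ccnd3 controls did not overlap the knockout, but most of the peaks behind these medians lay upstream of the inner start in controls 1 and 3 and downstream of it in the knockout, so the difference does not compare the same parts of the gene. Cenpe, a kinetochore motor, differed by 0.79 ± 0.26 (limma adjusted p = 0.499) and Cdk6 by 0.74 ± 0.26 (limma adjusted p = 0.507). The median difference was 0.03 in the cell cycle genes and 0.19 over all genes tested. Without the centring, limma called 5 of the cell cycle genes (Ccnd3, Cdk2, Cenpe, Cdk6 and Cenpf) among 548 of all 4737 genes (11.6%), with a median difference of 0.66 over all genes.

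Single sites called in all 4 lists were compared in the same way. Of 16093 sites tested, limma gave 1 at an adjusted p below 0.05, higher in the controls (0.00621%), and 0 lower. Of 187 sites in 40 of the cell cycle genes, 0 passed, with a median difference of −0.01, beside 0.11 over all sites tested. The smallest adjusted p was shared by a Rbl1 site at chr2:157204290-157204481, which differed by 2.35 ± 0.74, and the Ccnd3 site at chr17:47543882-47544116, which differed by 2.70 ± 0.85 (SE; limma adjusted p = 0.416 for both). Without control 2 this Ccnd3 site passed, with a difference of 3.32 (limma adjusted p = 0.0391), as 1 of the 61 that passed among all 16093 sites (0.379%). It joins the peaks given above, of which the control 1 and knockout peaks did not overlap. The Rbl1 site takes in the one given above, 189 nt from the 5′ end of that gene. No knockout peak was called over that shorter site, so the knockout value of −2.77 came from bases outside it. Sites without a called knockout peak, those of Aurkb and Plk4 among them, could not enter this fit. For a single value, an exact permutation test of 1 against 3 libraries cannot give a p below 0.25.

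A further 150 genes of the same pathways were listed for comparison, of which 149 had a called peak and 137 were called in all 3 controls. Of these 137, 9 genes (6.57%) had a reproducible region, beside the 2.28% of all protein-coding genes given above. They were Ccnk, Ckap5, Cit, Kntc1, Cdk8, Mki67, Tfdp1, Ttk and Kif15. The 150 genes were listed with earlier results of these data known, and their number of called peaks per gene was not compared with that of all genes. The difference between 6.57% and 2.28% was not tested. In Ccnk, the cyclin partner of Cdk12 and Cdk13, the region at chr12:108199142-108199276 was supported by all 3 controls. It had log2 folds of 4.60, 5.55 and 4.75 over the knockout IP (4.97 ± 0.51, SD, n = 3) and 4.31, 5.26 and 3.77 over input (4.45 ± 0.76, SD, n = 3). Neither Cdk12 nor Cdk13 had an enriched peak. Cit, a kinase of the cytokinetic midbody, had 4.36 ± 0.49 over the knockout IP, and Mki67, a coat protein of mitotic chromosomes, 4.49 ± 0.45 (both SD, n = 3). Ttk, the checkpoint kinase upstream of Mad1, had 3.63 ± 1.09 (SD, n = 3).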

How the data were processed

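CLIP was performed on 4 IPs and 4 inputs, and 7 peak lists were used: 4 of an IP over input and 3 of a control IP over the knockout IP. The −log10 p-value and the log2 fold of each peak were computed and deposited by the authors. The units were read from the layout and values, since the lists have no header, and the deposited −log10 p-value had a cap of 400. The build is mm10 per the submitters' processing notes. The sources used here name no aligner, caller, scaling, treatment of PCR duplicates or rule for peaks that lack reads in the comparator, and the largest folds over the knockout IP can depend on that rule.

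Members, lists, thresholds and alternatives were chosen with earlier results of these data known. Gene spans, starts, promoter windows and microRNAs came from RefSeq tables (GRCm38.p6), in which 39 of the 52 genes had a window. A genome and exon annotation were not used here, so exon or intron position and the sequence of peaks were not analysed here. Peaks whose log2 fold and −log10 p both reached 3 were counted as enriched. They were joined by an overlap of at least 1 nt on the same strand, and a site took the highest fold of each library. Differences between control and knockout were tested with limma 3.58.1 in R 4.3.3 (lmFit and eBayes, two-sided, Benjamini-Hochberg over all genes or sites) on library-centred log2 folds, after a check on simulated data. Tables were made with Python 3.11.15 and pandas 2.3.3. Named were members with a region, a peak enriched in a control or in the knockout, the 5 highest and 5 lowest gene medians, the 5 genes with most peaks, those past a limma threshold, and members without a called peak. Cenpe, Rbl2, the promoter windows, the microRNAs and members named only as lacking an enriched peak were added after their values were seen. Coordinates are 1-based.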

Additional observations from a re-analysis of the deposited data

Results flagged for a closer look

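In Ccnd3 all 3 controls lay above the median of their library in the gene median over input, and the knockout lay below its own. The difference was 2.32 on the log2 scale (limma adjusted p = 0.489), so it did not pass the test across all genes. The controls had 55, 13 and 47 called peaks in the gene and the knockout had 6. Upstream of the inner start lay 50, 6 and 39 of the control peaks and 1 knockout peak, so the medians of controls 1 and 3 rest mainly on upstream peaks and the knockout median on downstream peaks. The downstream medians over input were 0.31, 0.43 and −0.11 in the controls and −1.67 in the knockout.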

How the results depend on the processing

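The mean number of peaks enriched over input in the controls was 16.7, and became 7 with the fold threshold at 4, 8.33 with the −log10 p threshold at 5 and 10.7 without Cdk6, the last chosen after seeing the data. Leaving out each control in turn gave 15.5 to 18. Over the knockout IP the mean of 11.7 became 6.33 with the fold threshold at 4 and 5.67 with the −log10 p threshold at 5, and ranged from 7 without control 2 to 14.5 without control 3. The 2 reproducible regions became 1 (Aurkb) with the fold threshold at 4 and with the −log10 p threshold at 5. They also became 1 with support by all 3 controls and without control 1 or control 2. Leaving out each control thus gave 1 to 2. The Plk4 region rested on controls 1 and 2 alone, so its loss without either or with support by all 3 follows from the rule. Over the knockout IP alone there were 5 regions and over input alone 11, where all genes together had 598 and 561, against 203 with both. Without centring, 5 genes passed limma (Ccnd3, Cdk2, Cenpe, Cdk6 and Cenpf, all higher in the controls) among 548 of all 4737 genes. The median difference over all genes was then 0.66, and 0.50 in the cell cycle genes. In the site fit, leaving out each control gave 0 to 1 sites in these genes, and 63, 61 and 48 of all 16093 sites without control 1, 2 and 3, against 1 with all controls. The 1 site, at chr17:47543882-47544116 in Ccnd3, passed without control 2, with a difference of 3.32 (limma adjusted p = 0.0391). The cause of these changes was not tested. A further 32 recomputed values stayed on the same side of the test, within 1.5 times the count or within 1 SD of the value. No paired analysis was possible because the control IPs and the single knockout IP share only the replicate number 1.

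The unknown depth, the single knockout library and the coarse steps of the deposited folds limit these comparisons. A site with no called knockout peak has no knockout value over input, and the rule behind its fold over the knockout IP is unknown here. The 3 comparisons over the knockout IP share that library. RNA levels were not measured here.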
